A study of Danio rerio with 18 samples.

Results

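The genes described here encode deubiquitinases, subunits of the proteasome and of the COP9 signalosome, and chaperones. Members were chosen by gene symbol, ignoring case, as every listed site in a gene whose symbol starts with usp, otud, uchl, psma, psmb, psmc, psmd, psme, cops, dnaj, hsp or cct (for usp and cct, followed by a digit). This rule found 121 distinct 5-methylcytosine (m5C) sites in 75 genes, of 9047 sites in 5129 genes in all. They accounted for 323 of the 21214 entries of the 9 stage lists.

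The mRNA of wild-type AB zebrafish embryos and larvae was collected at 0, 2 and 4, at 6, 8 and 10, and at 16, 24 and 48 hours post-fertilization (hpf), from pools of animals of natural crosses with no further treatment. Each stage had 2 libraries, 18 in all. Bisulfite treatment turns unmethylated cytosine into a base that is read as T, while m5C is still read as C, so the methylation level of a site is the share of C among its C and T reads and its coverage is the sum of those reads. The deposited list of a stage combines its libraries, so levels have no replicate error. All intervals below are 95% intervals. Those of a site's level (Wilson) or change cover the counting of reads only, in which PCR copies are not told apart. Those of a median or of a share of sites come from the number of sites. They treat sites as independent, although a gene can hold several.

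Ubiquitin is a small protein that is joined to other proteins, and a chain of it marks many of them for the proteasome. The proteasome is a barrel-shaped core particle, built of the psma and psmb subunits that enclose its cutting sites, with a regulatory particle at its end, in which the psmc ATPases unfold the substrate and the psmd subunits bind and remove ubiquitin. Deubiquitinases of the USP, OTU and UCH families cut ubiquitin from proteins before they reach the proteasome. The COP9 signalosome, a relative of the lid of the regulatory particle, removes the ubiquitin-like protein Nedd8 from cullin ligases. Chaperones help proteins to fold: HSP70 proteins (hspa genes) work with J-domain partners (dnaj genes), HSP90 finishes many kinases and receptors, and the ring-shaped chaperonins hspd1 in mitochondria and CCT in the cytosol enclose their clients. These roles, and those given for single genes below, are known from mammals and yeast. In the early zebrafish embryo the mRNAs are of maternal origin, and in the following hours they are cleared while the embryo's own genome is switched on. A pooled embryo mixes both sources, so less methylation per molecule and dilution by newly made molecules cannot be told apart, nor can fewer cells of a type and less RNA per cell.

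The number of sites differed between the families, which was not tested and takes no account of transcript length or read depth. RefSeq names 49 USP genes by symbol, and 25 USP genes here held 50 sites. The OTU family had 8 sites in 5 genes of 8 named, and the UCH family had 1 site in 1 gene (uchl3) of 3. Core particle genes held 8 sites in 6 genes of 24, psmc ATPases 6 sites in 4 genes of 8, and genes with the psmd prefix 11 sites in 9 genes of 16. No site was listed in any of the 6 proteasome activator (psme) genes. The COP9 genes cops4 and cops5 had 1 site each. J-domain genes held 14 sites in 12 genes of 53, and hsp genes 17 sites in 10 genes of 39. Genes with the cct prefix held 4 sites, all in cct4, of 7 genes, and the CCT subunit gene tcp1 lies outside the symbol rule. By class this made 59 sites in deubiquitinase genes, 25 in proteasome genes, 2 in COP9 genes and 35 in chaperone genes. The symbols hspg2 (perlecan, a matrix proteoglycan) and hspbap1 (a protein that binds a small heat shock protein) only share the hsp prefix.

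Most genes had few sites. A single site was found in 46 of the 75 genes (61.3%), against 58.6% of all other genes. The gene with most sites was usp36, a nucleolar deubiquitinase, with 5. The genes usp7, usp24, otud7b and cct4 had 4 each. The sites lay on all 25 chromosomes, with 3 on unplaced scaffolds, and 55 of the 121 were on the plus strand. Positions are given in the Zv9 assembly as deposited, and the place of a site within its transcript was not analysed here.

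**Figure D1:**
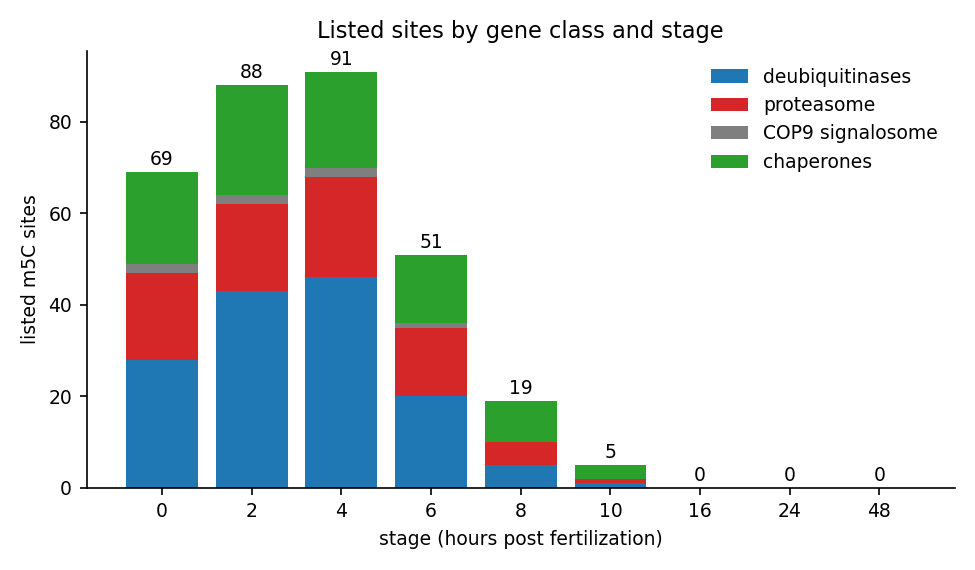
Number of listed m5C sites (y axis) at each stage in hours post-fertilization (x axis), stacked by gene class, with the total above each bar. The total was highest at 4 hpf (91), had come to 5 by 10 hpf, and no site was listed at 16, 24 or 48 hpf.

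The number of sites was highest at 4 hpf and lower at each stage after it, as the plot of sites by class and stage shows. The lists held 69, 88, 91, 51, 19 and 5 sites at 0, 2, 4, 6, 8 and 10 hpf. None of the 121 was listed at 16, 24 or 48 hpf, where the lists of all genes held 21, 14 and 25 sites. As a share of all listed sites the members made up 1.47, 1.42, 1.55, 1.90 (1.45 to 2.49), 1.52 and 1.17% (0.50 to 2.71) at these stages. The intervals of these shares overlapped, but the lists have many sites in common, and a difference between the shares was not tested. Of the 121 sites, 115 were listed at 0, 2 or 4 hpf, 2 were first listed at 6 hpf and 4 at 8 hpf. Of the sites at 6 hpf, 94.1% of the members and 88.0% of all other sites were also listed at 4 hpf. At 8 hpf, 78.9% of the members and 59.9% of all other sites were also listed at 6 hpf. These differences were not tested. All of 0, 2 and 4 hpf shared 52 of the 121 sites, 33 were in every list of 0 to 6 hpf and 10 in every list of 0 to 8 hpf. Counts over several lists are given for the members only.

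Levels were spread widely within each stage. Median levels at 0, 2, 4, 6 and 8 hpf were 20.7% (16.1 to 23.6), 23.0% (18.5 to 27.1), 21.9% (18.7 to 28), 19.2% (16.3 to 24.2) and 18.1% (14.9 to 23.7). The medians of all other sites were 19.4, 19.2, 19.2, 18.9 and 16.5% in the same order, each inside the interval of the members. At 10 hpf the 5 remaining sites had a median of 12.6%, and all other sites one of 16.7%. Levels of 50% or more were found at 5, 14, 13 and 6 sites at 0, 2, 4 and 6 hpf and at none at 8 or 10 hpf. These were 7.25, 15.9, 14.3, 11.8, 0 and 0% of the members, against 12.8, 12.7, 12.9, 8.85, 5.11 and 5.20% of all other sites, in the order of the stages. The highest level of all was 93.9% (83.5 to 97.9, 49 reads) at chromosome 3, position 134294 in hspbp1, an exchange factor for HSP70, which was listed at 2 hpf only. Median coverage of the members was 163, 190, 244, 218, 395 and 193 reads at 0, 2, 4, 6, 8 and 10 hpf. It was above that of all other sites (126, 147, 167, 132, 96 and 97 reads in the same order) at each of these stages.

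**Figure D2:**
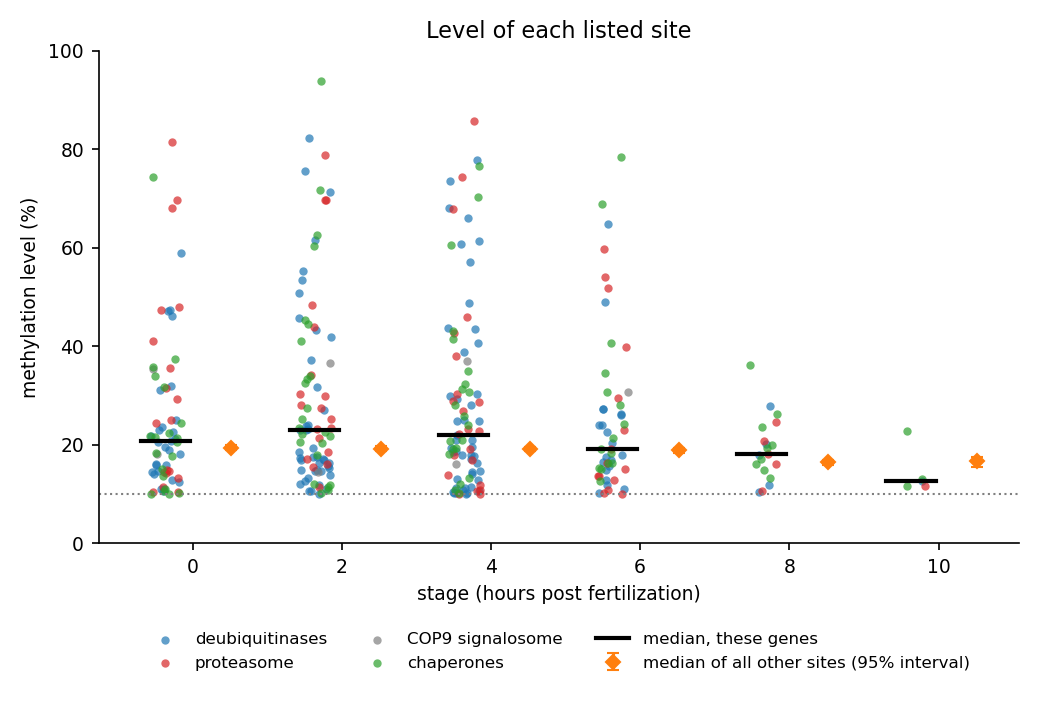
Methylation level in percent (y axis) of each listed site of these genes, as 1 point per site coloured by class, at each stage in hours post-fertilization (x axis), with their median as a black bar and the median of all other sites as an orange diamond with its 95% interval. The dotted line marks the list minimum of 10%. The points reach 85.7% at 4 hpf and 36.3% at 8 hpf, while the medians lie close to those of all other sites up to 8 hpf.

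Among core particle genes, psmb1 carried the most reads and the highest level. Its site (ENSDARG00000009640, chromosome 13, position 1014884, minus strand) had levels of 81.5% (79.3 to 83.6), 78.8%, 85.7% (83.9 to 87.4), 51.8% (49.8 to 53.9) and 16.1% (14.7 to 17.6) at 0, 2, 4, 6 and 8 hpf, over 885 to 2450 reads. It was thus near 80% or above until 4 hpf, and each of the later values lay far below the one before it. The site of psma2 (chromosome 16, position 46263307) had 41.1, 43.9, 42.6 and 29.6% at 0, 2, 4 and 6 hpf. In psma4, 1 of 2 sites (chromosome 25, position 6569451) had 24.4, 27.5, 26.8 and 10.3% at 0, 2, 4 and 6 hpf, the last value just above the list minimum. The site of psmb3 (chromosome 6, position 16408869) followed the same course, with 29.3, 30.4, 23.3 and 10.1%. In psma5 (chromosome 11) the site at position 37187863 had 13.2, 18.5, 17.9 and 13.7%, and the neighbouring base, at 37187864, was listed at 2 hpf only with 16.1%. The other listed sites of the core particle, in psma1 and psma4, had 10.0% and 10.5% in 1 list each.

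The regulatory particle gave the longest-lasting sites of the proteasome. The psmd14 subunit is its own deubiquitinase, which cuts the chain off a substrate as it enters. Its site (ENSDARG00000063100, chromosome 11, position 10909573, minus strand) had 69.6% (67.2 to 71.9), 69.7%, 67.9%, 54.0% (50.9 to 57.0) and 24.7% (21.5 to 28.2) from 0 to 8 hpf, over 627 to 1510 reads. The base scaffold psmd2 (ENSDARG00000088574) had a pair of sites 41 nt apart on the minus strand of chromosome 15, and both were in every list of 0 to 8 hpf. At position 44385018 the levels were 68.0% (60.1 to 75), 69.8%, 74.4%, 59.8% and 18.1% (15.6 to 21.0), and at position 44384977 they were 14.3% (8.85 to 22.2), 23.3%, 28.8%, 19.1% and 10.7% (8.60 to 13.2). Both sites were highest at 4 hpf, and the gap between them was widest early and narrowest at 8 hpf. The lid subunit psmd3 (ENSDARG00000018124, chromosome 19, position 49779059) was the only proteasome site listed at 10 hpf. Its level was 47.4, 48.3, 45.9, 39.8, 20.7 and 11.7% at the 6 stages from 0 to 10 hpf, over 331 to 1103 reads, so that most of its decline came after 6 hpf.

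The remaining psmd and psmc sites were last listed at 6 hpf or before. Of the 2 sites of psmd11b, 1 (chromosome 12, position 29907415) had 48.0, 30, 28.7 and 12.8% at 0, 2, 4 and 6 hpf, while its close copy psmd11a stayed between 10.4 and 15.4%. The psmd6 site (chromosome 11, position 19929477) had 14.9, 25.2, 22.8 and 16.3%. Of the ATPases, psmc5 had the highest level at 4 hpf, with 34.1, 38.1 and 13.6% at 2, 4 and 6 hpf (chromosome 12, position 11243391). The site of psmc3 (chromosome 7, position 40075787), with 2682 to 3259 reads from 2 hpf on, had 14.6, 21.3, 17.0 and 15%. The copies psmc1a and psmc1b had 2 sites each, with levels of 10.8 to 30.3% and 10.8 to 31.5% in their lists. Reads of close copies can be assigned to either gene through the alignment to transcripts, so values of psmc1a, psmc1b, psmd11a and psmd11b are less certain. The sites of psmd4b, psmd9 and psmd12 were each in 1 list.

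Among the USP deubiquitinases, the most deeply read sites of high level were in usp37, known to spare cyclin A from degradation. At the minus-strand positions 707110 and 707405 of chromosome 9, 295 nt apart, its levels (ENSDARG00000040990) were 47.3, 43.4, 43.6 and 16.5% (over 677 to 2399 reads) and 58.9, 50.8, 61.3 and 26.2% (over 233 to 1050 reads) at 0, 2, 4 and 6 hpf. Both sites were last listed at 6 hpf, at less than the level of any stage before. The highest USP level at 4 hpf among sites with at least 50 reads was in usp33, a deubiquitinase of the thyroid hormone enzyme Dio2 and of the Robo receptor. Its site at position 8551830 of chromosome 2 (ENSDARG00000016163) had 82.3% (78.3 to 85.8), 77.8%, 64.9% (56.5 to 72.5) and 20.1% (14.6 to 27.2) at 2, 4, 6 and 8 hpf, over 134 to 618 reads. In usp54a and usp49 levels of 68.1% and 73.5% were found at 4 hpf over 47 and 49 reads.

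The genes with most sites held mainly low levels. In usp36 the 5 sites, between positions 58402787 and 58428986 of chromosome 3, had 10.2 to 37.3% and none was listed after 4 hpf. In usp7, the deubiquitinase of p53 and of its ligase MDM2, the 4 sites between positions 27762631 and 27777369 of chromosome 3 had 13.1 to 31.1%, and only position 27776393 was still listed at 6 hpf, with 31.1, 27.1, 25 and 15.6% from 0 to 6 hpf. Of the 4 usp24 sites (chromosome 20), position 7668098 was in 5 lists with 53.5, 57.1, 26.1, 17.9 and 12.6% at 2, 4, 6, 8 and 10 hpf, and was the only deubiquitinase site at 10 hpf. Position 7760568 of usp24 had 23.0, 38.8, 24.0 and 27.9% at 2, 4, 6 and 8 hpf, and was thus no lower at 8 hpf than at 2 hpf. The most deeply read deubiquitinase site was in usp1, which removes ubiquitin from FANCD2 and PCNA in DNA repair. It had 19.0, 13.3 and 14.1% at 0, 2 and 4 hpf, over 858, 4694 and 4573 reads, at chromosome 6, position 32100706, and neither usp1 site was listed at 6 hpf. In usp19, an ER-anchored deubiquitinase, and in usp4 2 and 1 of 3 sites were listed at 6 hpf. Adjacent bases of usp4 (chromosome 6, positions 42287284 and 42287285) had 46.2, 55.3 and 43.8%, and 23.6, 23.1 and 17.8%, at 0, 2 and 4 hpf, so the first had the higher level in each list.

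Sites of the OTU, UCH and COP9 genes were few. The otud5b site (chromosome 11, position 26615244) had 61.5, 66.0 and 49.0% at 2, 4 and 6 hpf, the highest of its family. In otud7b, whose product (Cezanne) opposes NF-kappa-B and cell cycle ligases, 4 sites had 10.0 to 30.3%, and the one at chromosome 16, position 49037708 was listed at 8 hpf only, with 11.8% over 34 reads. The uchl3 site (chromosome 9, position 23005031) had 14.6% (6.88 to 28.4), 14.7%, 18.6%, 24.0% (18.4 to 30.8) and 10.4% (7.74 to 13.8) from 0 to 8 hpf, over 41 to 395 reads, with its highest level at 6 hpf. The cops5 site lies in the gene of the subunit that removes Nedd8 (chromosome 24, position 24327197). Its level was 35.4, 36.6, 37.0 and 30.8% at 0, 2, 4 and 6 hpf over 48 to 165 reads, and that of cops4 was 18.1, 14.5 and 16.2% at 0, 2 and 4 hpf.

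Of the 3 sites in 6 lists, 2 were in J-domain genes and the other was the psmd3 site. The dnajc17 site, in the gene of a nuclear J-domain protein (ENSDARG00000026561, an unplaced scaffold, position 139243), had 74.4% (71.4 to 77.2), 71.7%, 76.6%, 68.8% (61.5 to 75.3), 36.3% (29.6 to 43.5) and 22.8% (17.4 to 29.2) from 0 to 10 hpf, over 170 to 876 reads. It was the highest of the members at both 8 and 10 hpf. The dnajc1 site, in the gene of a J-domain protein of the endoplasmic reticulum membrane (ENSDARG00000001940, chromosome 2, position 20973240), took another course. Its level was 20.5% (17.7 to 23.6), 27.5%, 28%, 34.5% (30 to 39.3), 26.2% and 11.6% (9.49 to 14) from 0 to 10 hpf, with the highest value at 6 hpf and the lowest at 10 hpf. In dnajc2, a ribosome-associated partner of HSP70, the level was 31.8, 34, 34.9 and 15.1% at 0, 2, 4 and 6 hpf (chromosome 4, position 1640841), while the coverage was 2787, 573, 315 and 126 reads. Coverage thus fell at every step and the level only at the last. DNAJC13, an endosomal protein, had 3 sites with 10.3 to 35.7%, and each of dnajb2, dnajc4, dnajc8 and dnajc21 had 1 site in 1 list.

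The HSP70 genes hspa5 and hspa8 were read deeply. The sites of hspa5 (BiP, the HSP70 of the endoplasmic reticulum, chromosome 5) reached 10379 and 8604 reads at 4 hpf. Position 2516417 had 18.3, 22.1, 24.0 and 21.4% at 0, 2, 4 and 6 hpf, and position 2513663 had 13.7, 18.2 and 16.3% at 0, 4 and 6 hpf. The constitutive HSP70 hspa8 (chromosome 10, position 30759536) had 21.6, 23.5, 25.8 and 15.3% at 0, 2, 4 and 6 hpf, over 1621 to 5775 reads. Levels in these genes stayed low to moderate, whereas the sites of hspa4b, an exchange factor for HSP70, were higher. On chromosome 14, position 24600899 of hspa4b had 62.5, 60.5, 40.6 and 17.1% at 2, 4, 6 and 8 hpf, and position 24606701 had 37.5, 44.5, 41.5, 28.1 and 13.2% from 0 to 8 hpf. The hspd1 site (ENSDARG00000056160, chromosome 9, position 33327862) had 33.9, 33.4, 31.3 and 30.7% up to 6 hpf, over 611 to 1375 reads, and 14.9% (13.2 to 16.7) over 1548 reads at 8 hpf. The hspd1 level stayed within a narrow range through 6 hpf and was clearly lower only at 8 hpf. The perlecan gene hspg2 had the highest level under the hsp prefix at 4 hpf, with 60.4, 70.4, 78.4 and 19.4% at 2, 4, 6 and 8 hpf over 37 to 62 reads (chromosome 23, position 26877674). Both early sites of hsp90ab1 (chromosome 20, positions 51540453 and 51540662) had 15.1 to 32.6%, and the 4 cct4 sites (chromosome 1) had 10.1 to 20.9% and were not listed after 4 hpf. Since hspa8, hspa4b and hsp90ab1 have close copies, their reads are less certain than those of hspd1 or hspa5.

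Between consecutive stages a site was called changed where Fisher's exact test on its C and T reads, two-sided, gave a Benjamini-Hochberg adjusted p under 0.05 over all sites listed at both stages. A z test with beta-binomial variance, which allows for extra spread of reads, was set beside it. That spread was not measured within a stage. It was set from the differences between 2 and 4 hpf, which also hold any real change between these stages. As libraries were combined, both tests compare stage pools, with no measure of the spread between replicates. The first question was whether levels were stable in the egg and cleavage stages. Of 54 sites listed at both 2 and 0 hpf, 4 were called higher and 3 lower at 2 hpf (7 of 54, or 13.0%), where 4.83% of all shared sites were called higher, 4.86% lower and 9.69% in either direction. The beta-binomial test called none of them, against 2.52% of all shared sites. An unadjusted p under 0.05 in Fisher's exact test was found at 16 of the 54, and at 661 of all 3373 shared sites. The psmc3 site had 21.3% at 2 hpf, against 14.6% at 0 hpf (adjusted p = 1.02e-04 by Fisher's exact test, 0.329 by the beta-binomial test). The usp1 site at position 32100706 had 13.3% at 2 hpf, against 19.0% at 0 hpf (adjusted p = 5.76e-04 and 0.349 by the exact and the beta-binomial test). The site of psmd11b at position 29907415 had 30% at 2 hpf, against 48.0% at 0 hpf (exact adjusted p = 0.00447, beta-binomial 0.0557). The median change over the 54 sites was 0.65 percentage points (-1.46 to 2.74), against -0.26 over all other shared sites. By class it was -2.32 points (-3.94 to 0.06) at 22 deubiquitinase sites, of which 16 were lower at 2 hpf. At 16 proteasome sites it was 2.28 (-1.62 to 6.70), with 12 higher. At 14 chaperone sites it was 2.82 (-0.46 to 6.97), with 11 higher. Of all shared sites, 51.9% were lower at 2 hpf. Each of the intervals by class held 0, and the differences between classes were not tested.

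From 2 to 4 hpf, few sites were called. Of 74 shared sites, 2 were called higher and 2 lower at 4 hpf, with 1.92% of all shared sites called higher, 4.03% lower and 5.95% in either direction. None was called by the beta-binomial test, against 0.894% of all shared sites. An unadjusted p under 0.05 in Fisher's exact test was found at 10 of the 74, and at 736 of all 4587 shared sites. The spread in the beta-binomial test was set from this same step, so its lack of calls here cannot show that levels were stable. The usp37 site at position 707405 had 61.3% at 4 hpf, against 50.8% at 2 hpf (adjusted p = 3.32e-04 by Fisher's exact test, 0.313 by the beta-binomial test). The psmb1 site had 85.7% at 4 hpf, against 78.8% at 2 hpf (exact adjusted p = 6.58e-04, beta-binomial 0.451). The psmc3 site had 17.0% at 4 hpf, against 21.3% at 2 hpf (exact adjusted p = 0.00159, beta-binomial 0.844), the opposite direction to the step before. The median change was -0.36 points (-1.05 to 0.79), against -0.64 over all other shared sites, and its sign was not stable under other settings.

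**Figure D3:**
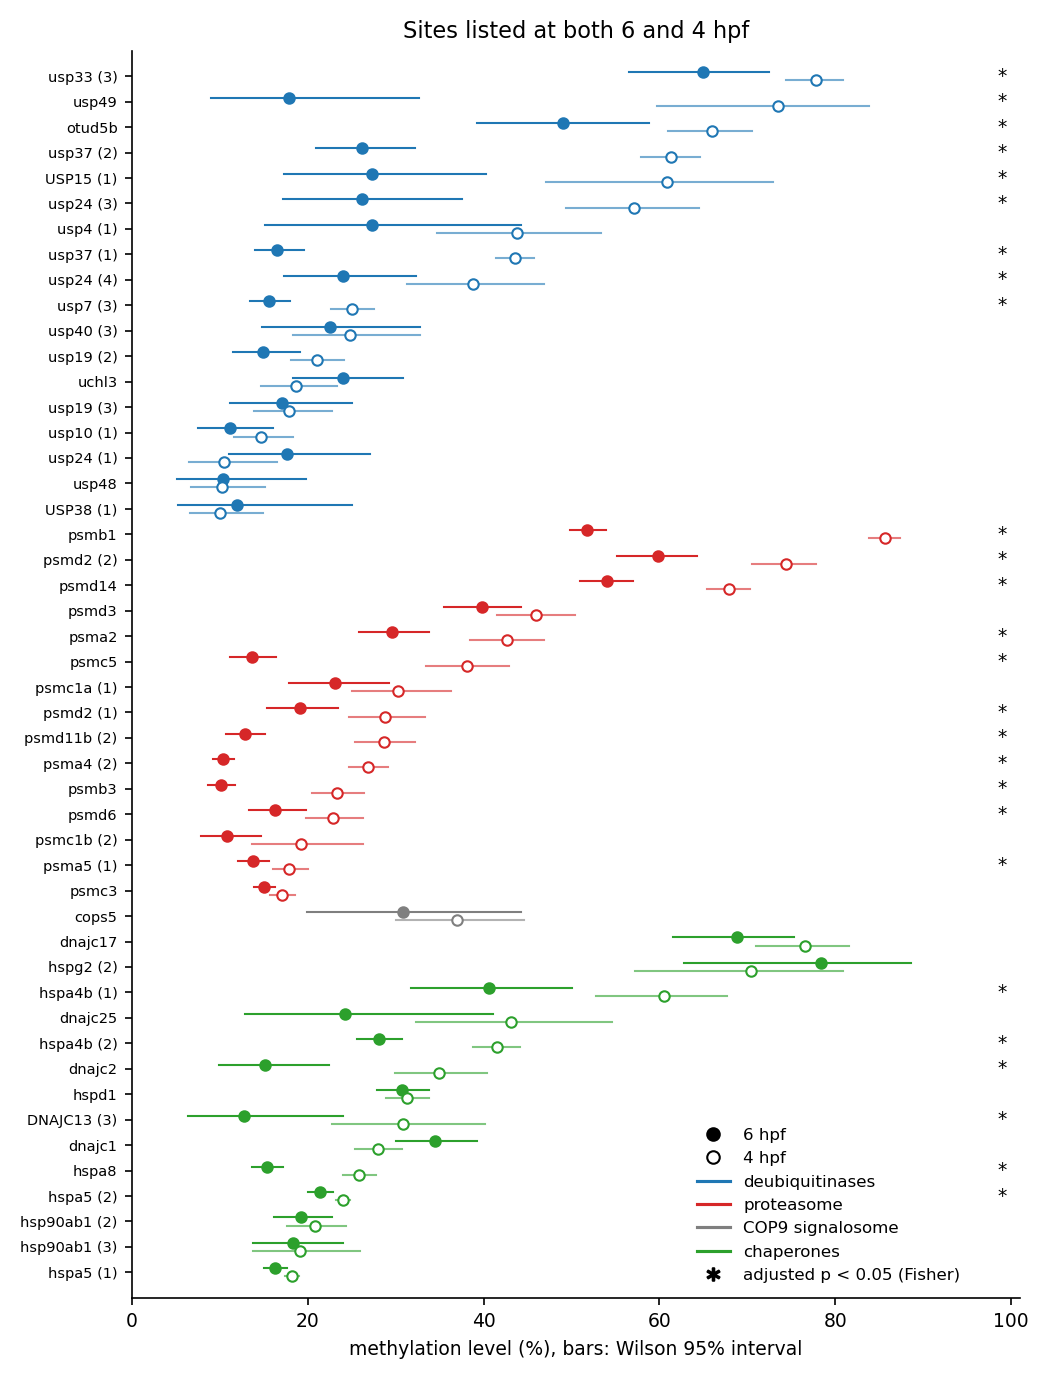
Methylation level in percent (x axis) of the 48 sites listed at both 6 hpf (filled) and 4 hpf (open), 1 row per site with Wilson 95% intervals, ordered by class and by level at 4 hpf. A number in parentheses orders the sites of a gene by position, and a star marks an adjusted p under 0.05 in Fisher's exact test. All 15 proteasome sites lie lower at 6 hpf, and no site of any class with a star lies higher. Of all shared sites, not shown, 75.5% were lower at 6 hpf.

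The first shared decline came between 4 and 6 hpf. Of 48 shared sites, 42 (87.5%) had a lower level at 6 hpf, against 75.5% of all shared sites. Of the 48, 26 were called lower and none higher, with 34.1% of all shared sites called lower and 1.01% higher. The beta-binomial test called 20 lower, with 24.9% of all shared sites. The median change was -9.55 percentage points (-14.6 to -6.04), against -4.95 (-5.40 to -4.49) over all other shared sites. At 4 hpf the members had a higher median level (30.5%, against 27.2%) and more reads (a median of 420, against 337). At 6 hpf the median level was 20.3% in both groups. Both lists need a level of at least 10%, which limits a fall from a low level. The part of starting level and depth in this difference was not tested. By class, the median change was -12.9 points at 15 proteasome sites, -11.1 at 18 deubiquitinase sites and -5.21 at 14 chaperone sites (-7.82 at 13 without hspg2, an alternative chosen after seeing the data). Of these, 11 proteasome, 9 deubiquitinase and 6 chaperone sites were called lower. The proteasome sites had more reads (a median of 640 at 4 hpf, against 240 at the deubiquitinase and 437 at the chaperone sites), and the part of depth in these counts was not tested. The differences between classes were not tested either.

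Where both stages had 50 reads or more, the largest called fall was in usp37. Its level at position 707405 was 26.2% at 6 hpf, against 61.3% at 4 hpf, a change of -35.2 points (-41.3 to -28.3; adjusted p = 2.99e-20 by Fisher's exact test, 6.55e-11 by the beta-binomial test). At position 707110 the change was -27.0 points (-30.4 to -23.4; exact adjusted p = 4.62e-38, beta-binomial 1.20e-10). The psmb1 site changed by -33.9 points (-36.5 to -31.1; exact adjusted p = 5.03e-108, beta-binomial 2.42e-19), with 51.8% at 6 hpf, against 85.7% at 4 hpf. The USP15 site had 27.3% at 6 hpf, against 60.8% at 4 hpf, over 55 and 51 reads (exact adjusted p = 0.00319, beta-binomial 0.00585). The usp24 site at position 7668098 had 26.1% at 6 hpf, against 57.1% at 4 hpf (exact adjusted p = 7.83e-05, beta-binomial 7.06e-04). These 5 falls came from sites above 40% at 4 hpf. A site that stays listed has at least 10%, so falls of this size need a high starting level. Of the 5, 4 were in deubiquitinase genes, with 2 of these in usp37, and deubiquitinase sites made up 18 of the 48 shared sites. With fewer reads, usp49 had 17.9% at 6 hpf (39 reads), against 73.5% at 4 hpf (49 reads; exact adjusted p = 1.26e-06, beta-binomial 9.16e-06).

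A smaller called fall was found at most proteasome sites. The psmc5 site had 13.6% at 6 hpf, against 38.1% at 4 hpf (adjusted p = 1.88e-18 by Fisher's exact test), and psma4 had 10.3% at 6 hpf, against 26.8% at 4 hpf (adjusted p = 6.81e-38). Falls of 12.9 to 15.9 points were called at psmb3, psmd11b, psmd14, psma2 and the higher psmd2 site, all by both tests. Fisher's exact test alone called the lower psmd2 site, psma5 and psmd6. The psmd3 site, at 39.8% at 6 hpf, against 45.9% at 4 hpf, was not called (adjusted p = 0.136 by the exact test), and neither were psmc1a, psmc1b and psmc3.

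Of 14 shared chaperone sites, 6 (42.9%) were called lower at 6 hpf by Fisher's exact test, with 34.1% of all shared sites. The beta-binomial test called 4 lower, with 24.9% of all shared sites. The hspa8 level was 15.3% at 6 hpf, against 25.8% at 4 hpf (adjusted p = 8.56e-14 by Fisher's exact test, 0.00413 by the beta-binomial test), and dnajc2 and both hspa4b sites were also called lower by both tests. The DNAJC13 site at position 1713 of chromosome 24 had 12.7% at 6 hpf, against 30.8% at 4 hpf (exact adjusted p = 0.0364, beta-binomial 0.0725). The remaining 8 sites were not called, among them dnajc25 with a change of -18.8 points (-35.0 to 1.14), dnajc17 with -7.82 (-16.6 to 0.81) and hspg2 with 8.01 (-10.8 to 24.7). At hspd1 the change was -0.55 points (-4.35 to 3.30), and at the hsp90ab1 sites -1.53 (-6.26 to 3.22) and -0.76 points (-9.0 to 7.06), so the intervals reach no further than a fall of 9.0 points. The hspa5 site at position 2516417, with 3279 reads at 6 hpf, against 10379 at 4 hpf, was called at a change of -2.60 points (adjusted p = 0.00765), but not by the beta-binomial test (adjusted p = 0.626). The dnajc1 site had 34.5% at 6 hpf, against 28% at 4 hpf, a change of 6.51 points (1.24 to 12) that just missed the threshold (adjusted p = 0.0503 by Fisher's exact test, 0.276 by the beta-binomial test). With at least 50 or 100 reads required, or a level of at least 20%, fewer sites were tested and dnajc1 was called higher by Fisher's exact test (adjusted p = 0.0453, 0.0382 and 0.0434).

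Coverage at 6 and 4 hpf was set beside the change in level. The ratio of coverage at 6 hpf to coverage at 4 hpf, which is not corrected for the depth of the libraries, had a median of 0.488 over all shared sites and of 0.692 over the members. For proteasome sites the median was 1.04, with a lowest value of 0.723, so all 15 lay above the median of all sites. For deubiquitinase sites it was 0.452 and for chaperone sites 0.670. Counted by read type, T reads at proteasome sites had a median ratio of 1.24 and were more numerous at 6 than at 4 hpf at 12 of 15 sites, whereas C reads had a median ratio of 0.643 and were more numerous at 2 of 15. At deubiquitinase sites the median ratios were 0.528 for T reads and 0.344 for C reads, and at all shared sites 0.552 and 0.387. C reads were thus fewer at most sites of both classes, while T reads were more numerous at most proteasome sites and fewer at most deubiquitinase sites. The difference between the classes was not tested.

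**Figure D4:**
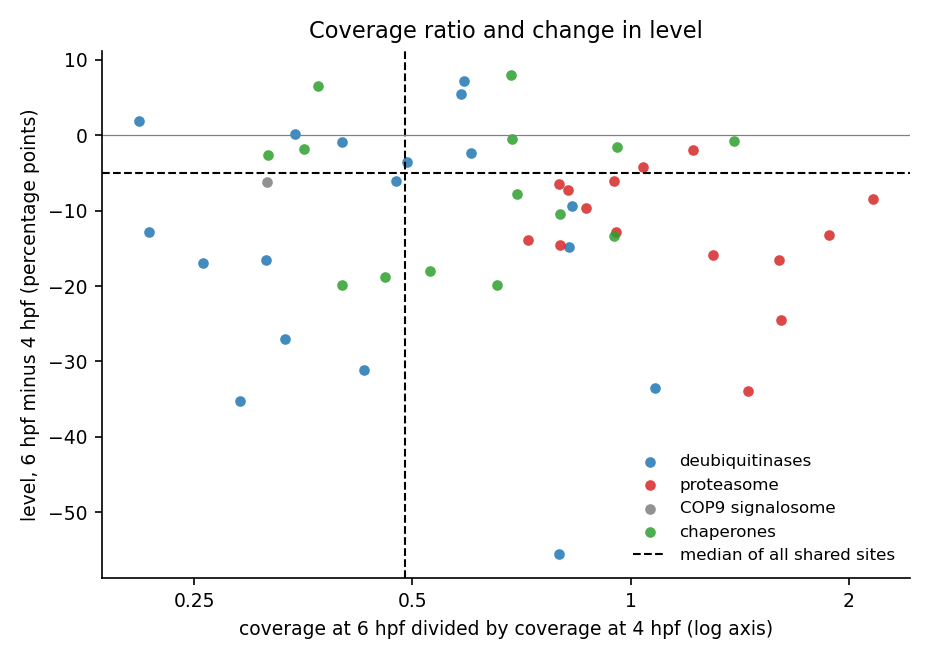
Change in level from 4 to 6 hpf, as 6 hpf minus 4 hpf in percentage points (y axis), against the ratio of coverage at 6 hpf to that at 4 hpf (x axis, log scale), with 1 point for each of the 48 shared sites, coloured by class. Dashed lines mark the medians of all shared sites, 0.488 for the ratio and -4.99 points for the change. All 15 proteasome points lie right of the vertical line, and 8 of the 18 deubiquitinase points do.

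At psmb1 the coverage was 2226 reads at 6 hpf, against 1540 at 4 hpf, and at psma4 it was 2361 reads at 6 hpf, against 1475 at 4 hpf. The psmb3 coverage was 1488 reads at 6 hpf, against 790 at 4 hpf. More reads covered these sites at 6 hpf while their level was lower. In usp37 the reverse held for coverage, with 677 reads at 6 hpf, against 2026 at 4 hpf, at position 707110, and 233 reads at 6 hpf, against 807 at 4 hpf, at position 707405. By class, coverage was higher at 6 than at 4 hpf at 8 of the 15 proteasome sites and 1 of the 18 deubiquitinase sites.

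Not every site of 4 hpf could be followed. Of 91 members, 48 (52.7%, 42.6 to 62.7) were listed again at 6 hpf, against 40.0% (38.7 to 41.3) of all other sites. The share was 68.2% (47.3 to 83.6) for proteasome sites, 66.7% (45.4 to 82.8) for chaperone sites and 39.1% (26.4 to 53.5) for deubiquitinase sites. With at least 100 reads at 4 hpf the shares were 62.0% (50.3 to 72.4) of the members and 54.0% (52.4 to 55.5) of all other sites, with intervals that overlapped. Differences between shares were not tested, and the sites of a gene are not independent. Of the 43 sites not listed again, 14 were in genes with another site listed at 6 hpf. A site leaves a list when its level is under 10%, its coverage is under 20 or another filter fails, and these cases are not separated. The earlier steps had shares of 78.3% (54 of 69) to 2 hpf, against 71.7% of all other sites, and 84.1% (74 of 88) to 4 hpf, against 73.8%. The share from 6 to 8 hpf was 29.4% (15 of 51), against 28.1%.

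**Figure D5:**
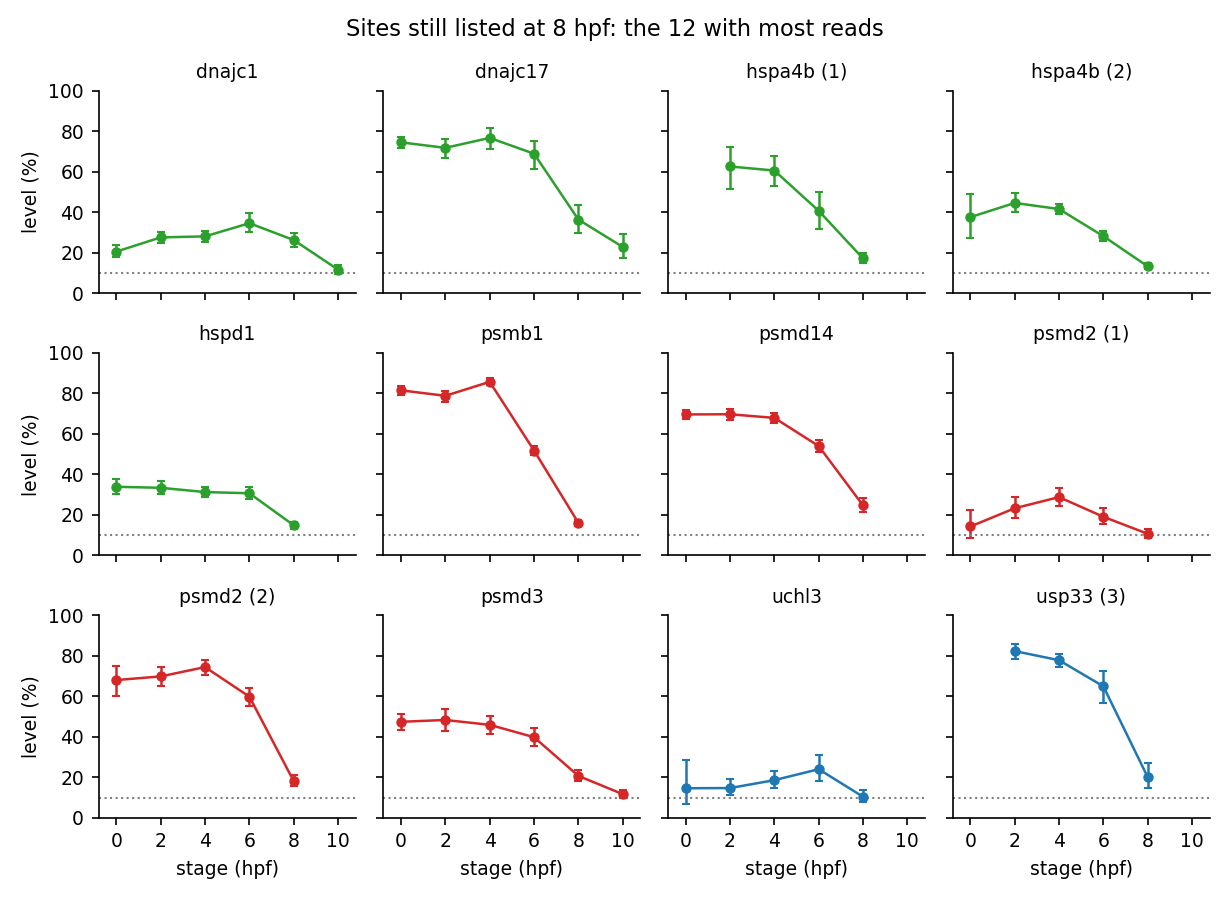
Methylation level in percent (y axis) with Wilson 95% intervals at each stage in hpf (x axis) for the 12 sites with most summed reads among those still listed at 8 hpf, 1 panel per site. A number in parentheses orders the sites of a gene by position, and the dotted line marks the list minimum of 10%. In 11 of 12 panels the value at 8 hpf is the lowest up to that stage, and in dnajc1 the lowest up to that stage is at 0 hpf.

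Between 6 and 8 hpf the decline went on at the sites that remained. All but 1 of 15 shared sites had a lower level at 8 hpf (93.3%), against 76.8% of all shared sites. Of the 15, 13 were called lower, with 46.2% of all shared sites called lower. The beta-binomial test called 12, with 40.6% of all shared sites. The median change was -19.1 points (-35.7 to -8.39), against -8.85 (-10.6 to -7.93) over all other shared sites. The members had a higher median level at 6 hpf (39.8%, against 30.2% at all other shared sites). At 8 hpf the medians were close (18.1% and 17.8%). Both lists need a level of at least 10%, which limits a fall from a low level, and the part of the starting level was not tested. All 5 proteasome sites were called, with changes of -41.6 points at the higher psmd2 site, -35.7 at psmb1, -29.3 at psmd14, -19.1 at psmd3 and -8.39 at the lower psmd2 site. In usp33 the level was 20.1% at 8 hpf, against 64.9% at 6 hpf (adjusted p = 8.23e-14 by Fisher's exact test, 2.42e-10 by the beta-binomial test). The dnajc17 site had 36.3% at 8 hpf, against 68.8% at 6 hpf (exact adjusted p = 4.91e-09, beta-binomial 1.65e-06). Sites that had not been called between 4 and 6 hpf were called here. One was hspd1, with 14.9% at 8 hpf, against 30.7% at 6 hpf (exact adjusted p = 1.48e-19, beta-binomial 5.17e-06), and another was uchl3, with 10.4% at 8 hpf, against 24.0% at 6 hpf (exact adjusted p = 1.18e-04, beta-binomial 0.00210). The exceptions were the 2 usp24 sites, with changes of -8.23 (-21.5 to 4.82) and 3.97 points (-8.48 to 17.4) over 68 to 121 reads.

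Coverage, again not corrected for the depth of the libraries, was higher at 8 than at 6 hpf at most of these sites. Only members still listed at 8 hpf could be compared. They had a median of 362 reads at 6 hpf, against 213 at the members not listed again. The ratio of coverage at 8 hpf to that at 6 hpf had a median of 1.64 at the 15 members, against 0.816 over all shared sites, and 13 of the 15 lay above that value. T reads had a median ratio of 2.14 and C reads of 0.793, against 1.0 and 0.510 over all shared sites. The widest change in coverage was in hspa4b at position 24600899, which had 959 reads at 8 hpf, against 106 at 6 hpf, and there the level was 17.1% at 8 hpf, against 40.6% at 6 hpf.

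By 10 hpf 5 sites were left, in dnajc1, dnajc17, psmd3, usp24 and dnaja2l. All of these were lower than at 8 hpf, as were 69.8% of all shared sites. Fisher's exact test called 3 of the 5, with 28.7% of all shared sites called lower, and the beta-binomial test called 2, with 22.2% of all shared sites. At dnajc1 the level was 11.6% at 10 hpf, against 26.2% at 8 hpf (adjusted p = 1.01e-11 by Fisher's exact test, 1.31e-04 by the beta-binomial test). At psmd3 it was 11.7% at 10 hpf, against 20.7% at 8 hpf (exact adjusted p = 1.72e-06, beta-binomial 0.0144), and at dnajc17 22.8% at 10 hpf, against 36.3% at 8 hpf (exact 0.0171, beta-binomial 0.0628). The usp24 and dnaja2l sites, with 119 and 115 reads at 10 hpf, were not called. Of the 19 sites at 8 hpf, 4 were first listed there, over 34 to 59 reads. They were those of dnaja2l (23.7% at 8 hpf, 13% at 10 hpf), dnajc11 (20.0%), otud7b and hsp90ab1 (16.1%). No change could be tested after 10 hpf, since no member was listed.

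Other genes of the same pathways, outside the symbol rule, were counted as well. A list of 59 such genes, among them further deubiquitinases, proteasome assembly factors, the segregase vcp and co-chaperones, held 45 sites in 27 genes. Of 17 sites shared by 6 and 4 hpf, 12 had a lower and 5 a higher level at 6 hpf. The share lower was 70.6%, against 75.5% of all shared sites. The median change was -4.13 points, against -4.99 over all shared sites. Fisher's exact test called 7 lower and none higher. That was 41.2% called lower, with 34.1% of all shared sites, and the beta-binomial test called 3, with 24.9% of all shared sites. The yod1 site at position 38877660 of chromosome 11, in the gene of an OTU deubiquitinase that works with vcp, had 23.1% at 6 hpf, against 63.0% at 4 hpf (adjusted p = 4.34e-11 by Fisher's exact test). In vcp, which pulls ubiquitinated proteins out of complexes, position 43133219 of chromosome 5 had 24.7% at 6 hpf, against 40.2% at 4 hpf (exact adjusted p = 4.10e-24), and 10.6% at 8 hpf over 3852 reads. The tcp1 site (chromosome 23, position 2449504) had 14.8, 32.5, 25.4 and 21.3% at 0, 2, 4 and 6 hpf, over 1476 to 5342 reads. Between 0 and 2 hpf, Fisher's exact test called 3 of 23 shared sites of this list higher and 3 lower. That was 26.1%, with 9.69% of all shared sites. The beta-binomial test called 1 higher and 2 lower, with 2.52% of all shared sites called.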

How the data were processed

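RNA bisulfite sequencing had been done by the study on 2 libraries at each of 9 stages, 18 in all, grouped by the stage in their titles. The authors trimmed reads with cutadapt and Trimmomatic, aligned them with HISAT2 (2.10 in the submitters' processing notes) to a converted Zv9 genome and the rest with Bowtie2 to converted transcripts, filtered reads and genes that resisted conversion, and combined replicates. The deposited files give, for each site of a stage, coverage as a read count, the level as a fraction (printed in percent) and a p-value of the authors, which was not used. No entry had under 20 reads or a level under 0.1. Level times coverage gave whole C reads within 1e-06 at every entry. Depth is known only as coverage per site.

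Consecutive stages gave 8 comparisons, tested by Fisher's exact test (SciPy 1.17.1 in Python 3.11.15), two-sided, with Benjamini-Hochberg adjustment over all shared sites and a threshold of 0.05. A logistic model planned for counts per replicate was not run, since counts are combined. The z test used a correlation of reads of 0.00232, set from all sites shared by 2 and 4 hpf. It was chosen so that the median size of z over these sites was that of no change. Intervals of medians, also of median changes, come from order statistics. Those of levels and of shares of sites are Wilson intervals, and those of the change at a site are Newcombe intervals. The tests were tested on simulated data. A gene name table held 65 of the 75 gene IDs, and RefSeq 74 of the symbols.

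The members and lists were chosen with earlier results of these data known. The naming rule took, per family, the gene with most sites and the highest site at 4 hpf with at least 50 reads, the 6 sites in most lists, 12 sites of 8 hpf or later by summed coverage, the 5 largest called changes from 4 to 6 hpf in each direction, the 3 smallest adjusted p of each earlier step and genes with 4 or more sites. Other sites were named to complete their families, with their values known. Alternatives were coverage of at least 50 or 100, a level minimum of 0.2, a minimum of 5 C reads, matching within 2 nt or by gene, means, sites in all lists of 0 to 6 hpf, and leaving out usp genes or genes that share only the prefix.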

Additional observations from a re-analysis of the deposited data

How the results depend on the processing

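No paired analysis was possible because each deposited list combines both replicates of its stage, and for the same reason no replicate could be left out. From 4 to 6 hpf the median change of the members lay between -13.9 and -8.42 points in 7 alternatives, from 6 to 8 hpf between -24.2 and -17.5, and from 0 to 2 hpf between 0.21 and 2.24. From 2 to 4 hpf it lay between -0.40 and 0.45, against -0.36 with an interval that held 0, and was above 0 in 5 of 7 alternatives. With sites of a mean level of at least 0.2 only, an alternative chosen after seeing the data, the median change from 4 to 6 hpf was -13.9 points. Without the genes with a close copy, also chosen after seeing the data, 21 sites were called lower from 4 to 6 hpf in place of 26. The beta-binomial test gave 0 calls higher and 0 lower at 2 against 0 hpf and at 4 against 2 hpf. Its spread had been set from the latter step, where few calls therefore follow in part from the setting. A level of at least 0.2 left 37, 51, 50, 25, 8 and 1 sites at 0 to 10 hpf with medians of 31.5, 34, 33.7, 29.6 and 24.2% up to 8 hpf, and the single site at 10 hpf had 22.8%. From 8 to 10 hpf 12.5% of these sites were listed again with a level of at least 0.2. That is not like the 26.3% of all members, which were listed again at any level. It left 1 call higher at 2 against 0 hpf, 0 lower at 4 against 2 hpf, 13 lower and 1 higher at 6 against 4 hpf, 5 lower at 8 against 6 hpf and 1 lower at 10 against 8 hpf, as fewer sites were tested. Coverage of at least 50 or of at least 100 gave 1 call higher at 6 against 4 hpf, dnajc1 in each case. Coverage of at least 100 left 12 sites at 8 hpf and a share listed again of 87.2% from 0 to 2 hpf. Plain means were 25.6, 29.8, 28.9 and 25.6% at 0, 2, 4 and 6 hpf, and means weighted by coverage 31.7 and 27.8% at 0 and 2 hpf. Without usp genes 42, 52, 51 and 33 sites were left at 0, 2, 4 and 6 hpf, 1 was called lower at 2 against 0 hpf and 1 higher at 4 against 2 hpf, and 62.7% of sites were listed again from 4 to 6 hpf. Counted by gene, 91.7% were listed again from 2 to 4 hpf and 63.5% from 4 to 6 hpf. Of 218 alternative values 178 lay near the value reported (medians and shares within its 95% interval, or within the range of the sites where there were too few for one, and counts within 1.5 times), 40 lay outside, and no change whose interval left out 0 turned its sign. Depth limits the shallow sites most. The one with fewest reads, in USP15 at 2 hpf, had 23.8% with an interval of 10.6 to 45.1% over 21 reads.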
